A study of Mus musculus with 24 samples.

Results

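A set of 9 genes known from the leptomeninges and their fibroblasts, Slc13a4, Slc6a13, Ptgds, Aldh1a2, Ogn, Dcn, Lum, Islr and Mgp, was followed in the mouse hippocampus across age and sex. They were chosen by name with earlier results of these data known, so shares set beside those of all probes describe this set only. Of the genes, 9 of 9 were on the array, among 16593 genes with a symbol, with 13 of its 25697 probes. A probe was kept where every array of some group exceeded an intensity of 16, which 8 of the 13 did, for 7 genes, among 11901 kept probes in all. Total RNA from the hippocampus of C57BL6 mice was amplified to labelled complementary RNA, which was hybridized to 24 Illumina arrays, 1 per mouse and 4 per group. The groups were young (FY), adult (FA) and old (FO) females and young (MY), adult (MA) and old (MO) males, at 3, 12 and 24 months of age. The labels name no transgene, drug or other intervention for any group. By the study's methods all females had daily vaginal lavage for some weeks and were taken in diestrus, and the old females were reproductively senescent. No lavage is described for the males.

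The leptomeninges, the arachnoid and the pia mater, are thin sheets of connective tissue that hold the cerebrospinal fluid against the brain surface and follow its fissures and larger vessels. Their fibroblasts lay down collagen and proteoglycans, supply retinoic acid to the developing cortex, and carry transporters and secreted proteins that act on the cerebrospinal fluid. They lie next to smooth muscle cells, border macrophages and, at the ventricles, the choroid plexus and the ependyma. In a bulk sample of the hippocampus, fewer cells of a type and less RNA per cell cannot be told apart.

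The genes fall into 3 roles. Slc13a4 encodes a sodium-coupled sulfate transporter found in the leptomeninges and also in the choroid plexus, and Slc6a13 encodes GAT2, a carrier of GABA and taurine. Ptgds and Aldh1a2 encode enzymes that make signalling lipids: lipocalin-type prostaglandin D synthase, a major protein of the cerebrospinal fluid that oligodendrocytes and choroid plexus also make, and the retinoic acid synthase of the meninges. Ogn, Dcn and Lum encode osteoglycin, decorin and lumican, small leucine-rich proteoglycans that bind collagen fibrils, Mgp encodes matrix Gla protein, an inhibitor of calcification that vascular smooth muscle also makes, and Islr encodes meflin, a surface protein of stromal cells.

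Because several of these genes varied together between mice, the 250 bases before their transcription starts were compared (RefSeq, GRCm38.p6). The promoter table held windows for 6 of the 9 genes, 4 of them with a kept probe, and Dcn, Lum and Mgp had none. The 3 windows shown share the letters GGAATG, the core bound by TEAD factors, printed in capitals, and for Slc6a13 the most upstream of its 3 windows is shown.
Slc13a4, chr6:35308127-35308376, minus strand: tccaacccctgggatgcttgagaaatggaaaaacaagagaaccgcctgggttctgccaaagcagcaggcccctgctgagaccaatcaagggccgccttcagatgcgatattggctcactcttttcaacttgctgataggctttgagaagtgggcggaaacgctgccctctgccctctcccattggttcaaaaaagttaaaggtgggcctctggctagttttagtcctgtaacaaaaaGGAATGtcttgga
Slc6a13, chr6:121300038-121300287, plus strand: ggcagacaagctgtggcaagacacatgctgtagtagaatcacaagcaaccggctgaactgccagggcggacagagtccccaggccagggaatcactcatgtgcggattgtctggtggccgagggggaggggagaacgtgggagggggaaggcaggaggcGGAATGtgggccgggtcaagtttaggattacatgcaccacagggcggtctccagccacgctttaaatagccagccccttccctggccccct
Ogn, chr13:49607765-49608014, plus strand: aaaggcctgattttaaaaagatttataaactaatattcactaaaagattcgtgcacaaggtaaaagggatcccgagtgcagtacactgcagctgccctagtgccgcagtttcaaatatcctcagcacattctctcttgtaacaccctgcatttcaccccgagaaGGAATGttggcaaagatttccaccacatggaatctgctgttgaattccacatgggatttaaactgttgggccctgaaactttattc
The match began 13 bases before the start in Slc13a4, 91 in Slc6a13 and 86 in Ogn, and the window of Ptgds had no match. On either strand (GGAATG or CATTCC), 3 of the 4 windows of kept genes and 3 of all 6 held it, those of Aldh1a2 and Islr having 0 matches, and 12.6% of 27025 promoters of the same length did. Among the windows of kept genes, the letters CCAAT were in 1 of 4 (Slc13a4, at 3 places) against 34.5% of promoters, GGGCGG in 2 of 4 against 33%, TATAAA in 1 of 4 against 13%, and TAAACA in 0 of 4 against 12%, again on both strands. These are matches of letters in few windows, and no binding was measured.

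In the annotation of the same assembly, Dcn and Lum are neighbours on chromosome 10, followed by Kera and Epyc of the same proteoglycan family, while Ogn lies on chromosome 13 beside Omd, Aspn and Ecm2. Of these 5 family neighbours none had a kept probe. Their mean intensities over the 24 arrays lay between -2.12 for Epyc and 3.53 for Omd, where values near 0 are background. In these 2 clusters only the probes of Dcn, Lum and Ogn were kept among the family members named.

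The kept probes were 1 each for Slc13a4, Slc6a13, Ptgds, Ogn, Lum and Mgp and 2 for Dcn. All were above 16 on every array of all 6 groups, except that of Lum, which stood at 12.8 on 1 old male array. The 2 probes for Aldh1a2, 1 for Islr and 2 further probes for Ogn were not kept. The brighter Aldh1a2 probe (ILMN_2630749) had a mean of 17.1 ± 2.93 in young, 15.2 ± 6.8 in adult and 8.52 ± 6.23 in old females (intensity, SD, n = 4 each), while males had 10.9 ± 7.84 when young, 11.8 ± 4.41 when adult and 8.94 ± 1.62 when old. It was at or under 16 on 15 of 24 arrays. Islr and the 2 other Ogn probes were at or under 16 on all 24 arrays. A probe's level depends on its own sequence, so levels were not compared between genes.

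Part of the other genes that mark the leptomeninges or fibroblasts was also dim. Of 48 listed, 40 were on the array and 24 were kept. The fibrillar collagen genes that define fibroblasts were among those not kept, with Col1a1 above 16 on 4 of 24 arrays and Col1a2 and Col3a1 on 0. Of the leptomeningeal transcription factors, Foxc1 and Zic1 were kept, and Foxc2, Foxd1 and Tbx18 were above 16 on 0 arrays. These genes were picked from the list for their role after their values were seen. The arrays therefore measured the genes of these cells in part only.

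Slc13a4 had the widest spread of the set on the log2 scale. Young females had intensities of 469, 180.4, 617 and 812, adult females 1304, 377, 67.7 and 339, and old females 158, 87.9, 80.6 and 154. Young males had 359.5, 550.1, 722 and 85.5, adult males 58.5, 516, 134 and 74.3, and old males 296, 83.6, 192 and 54.3. All 4 old females were below all 4 young females, whereas 1 young male array lay among the old males.

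For Slc6a13 the young females had intensities of 178, 149.8, 183 and 174, the adult females 140.0, 63.1, 67.3 and 238, and the old females 115, 71.5, 63 and 81.3. The young males had 272, 204, 126 and 74.1, the adult males 69.5, 215, 113 and 79.3, and the old males 61.7, 76.3, 111 and 44.7. The young females were tightly grouped and did not overlap the old females. Adult values were spread out in both sexes, with 3 of 4 adult females below every young female, and in males the old arrays overlapped the young ones through the same young male as for Slc13a4.

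Ptgds was split among adult mice, with 2 high and 2 low arrays in each sex. Its intensities were 2021, 1529, 2401 and 1540.0 in young, 1711, 737, 741 and 2160.2 in adult, and 999, 633, 999 and 976 in old females, the last below every young female. They were 2285, 2145, 1392 and 516 in young, 556, 1982, 1524 and 581 in adult, and 494, 456, 2578 and 761 in old males. The highest Ptgds value of all 24 arrays was that of an old male, and the range of the old males enclosed that of the young males.

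Mgp stood at 415, 352, 816 and 636 in young, 748, 388, 288 and 712 in adult, and 343, 301, 351 and 345 in old females. It stood at 495, 496, 494 and 223 in young, 208, 709.7, 320.4 and 264 in adult, and 311, 293, 325 and 233 in old males. The old arrays of both sexes were close together, and only in females did old and young not overlap, with the highest FO at 351 and the lowest FY at 352.

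Ogn ranged from 87.9 to 154 in young, from 62.3 to 179 in adult and from 44.8 to 94.1 in old females. In males it ranged from 55.7 to 155 in the young, from 57.6 to 148 in the adult and from 42.5 to 93.3 in the old. Lum ranged from 35.1 to 64.8 in young, from 24.6 to 90.1 in adult and from 22.7 to 36.3 in old females, and from 25.6 to 62.6 in young, from 25.5 to 47.8 in adult and from 12.8 to 46.4 in old males. Old and young overlapped for both genes in both sexes.

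Dcn was not lowest in old females. Its brighter probe (ILMN_2747959) averaged 1697 ± 484 in young, 1117 ± 341 in adult and 1190.5 ± 345 in old females, and 1333 ± 301 in young, 1378 ± 629 in adult and 1029.9 ± 539 in old males (intensity, SD, n = 4 each). The second probe (ILMN_2596346) averaged 511 ± 203 in young, 273 ± 91.3 in adult and 317 ± 134 in old females, and 364 ± 91.3 in young, 401 ± 243 in adult and 245 ± 136 in old males. By mean log2 values, 6 of 8 probes in females and 8 of 8 in males stood in the order young, adult, old from high to low, and the exceptions were both Dcn probes in females. Over all kept probes, 12.6% in females and 29.6% in males stood in that order.

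**Figure D1:**
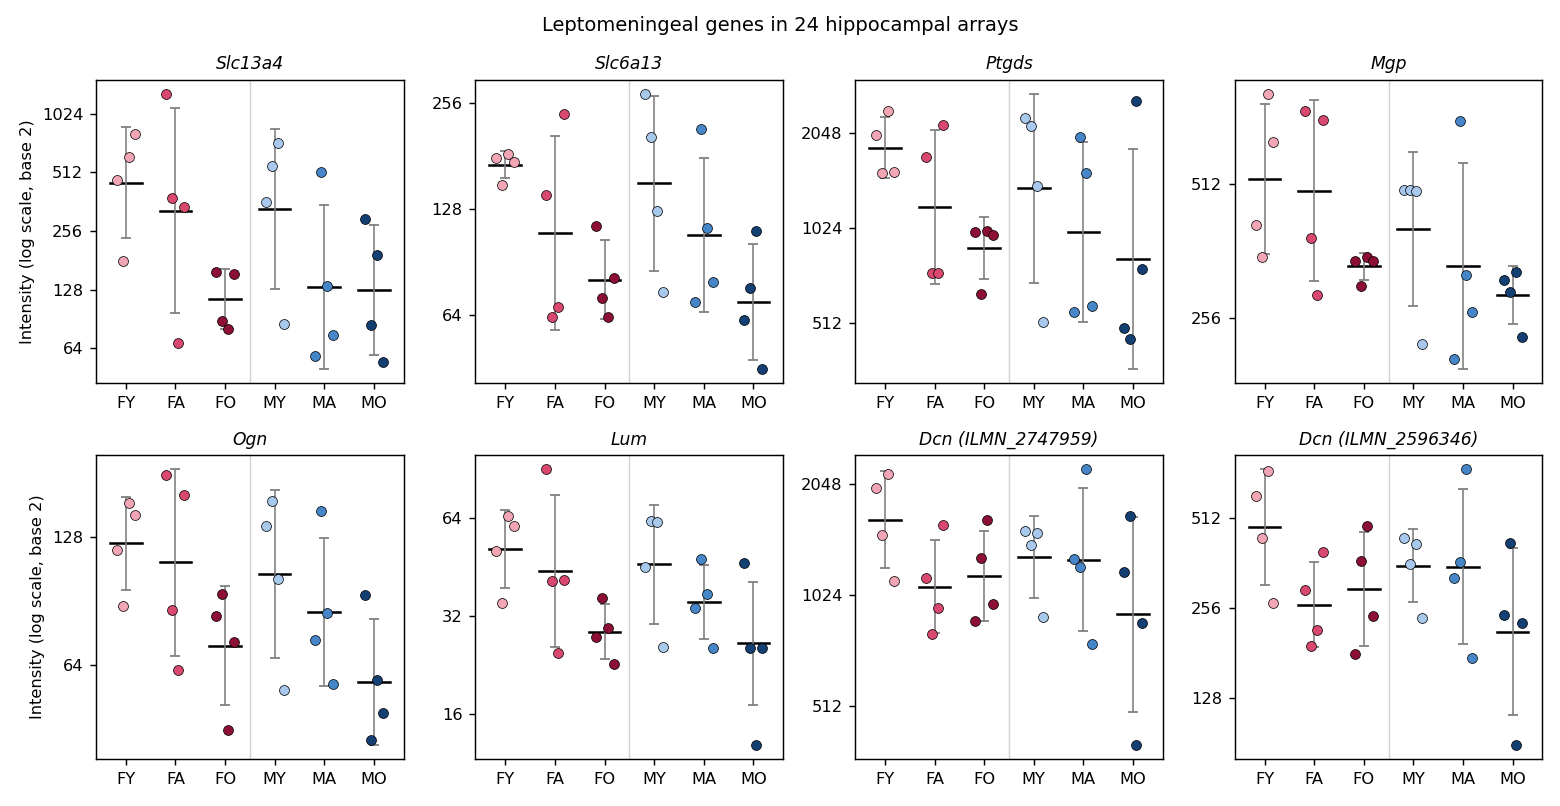
Intensity (log scale, base 2) of the 8 kept probes on each of the 24 arrays, by group, with the mean and SD of the log2 values as the black line and grey bar (n = 4 each). In each panel the mean of the old group lies below that of the young group of the same sex, 1 young male array is low throughout (Slc13a4 at 85.5, Mgp at 223), and adult groups of both sexes are split for Ptgds.

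To ask whether these genes differed with age, groups were compared with limma in 1 model over the 6 groups, on log2 values floored at 16, with Benjamini-Hochberg adjustment over all 11901 kept probes. In FO against FY no member probe passed an adjusted p of 0.05, where 0.714% of all kept probes did. All 8 log2 fold changes were below 0, as were 50.4% of those of all kept probes, and 4 of 8 had an unadjusted p under 0.05, against 2.92% of all kept probes with FO lower. Their median was -0.82, from -1.99 for Slc13a4 to -0.51 for Dcn, and the median of all kept probes was 0.00. Slc13a4 had a log2 fold change of -1.99 ± 0.78 (SE, limma, adjusted p = 0.579), Slc6a13 -1.08 ± 0.41 (limma, adjusted p = 0.51) and Ptgds -1.05 ± 0.52 (limma, adjusted p = 0.766). The groups did not overlap, with FO lower, for 4 of 8 probes (Slc13a4, Slc6a13, Ptgds and Mgp), which was so for 2.26% of all kept probes.

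In MO against MY 0 member probes were called, where 0.101% of all kept probes were, and 3 of 8 had an unadjusted p under 0.05, against 7.85% with MO lower. Again all 8 log2 fold changes were below 0, against 57.2% of all kept probes, with a median of -0.78. That of Slc6a13 was -1.12 ± 0.41 (SE, limma, adjusted p = 0.293), that of Ogn -0.85 ± 0.36 (limma, adjusted p = 0.364) and that of Lum -0.81 ± 0.35 (limma, adjusted p = 0.376). No probe was free of overlap between MO and MY, where 4.13% of all kept probes were so with MO lower. Old males 1 and 3 deviated most from their group over all kept probes, with a root mean square deviation of 0.356 and 0.335 on the log2 scale. Without these 2 arrays, a choice made after seeing the data, 0 member probes were called and the log2 fold change of Slc6a13 was -1.37 (limma, adjusted p = 0.638).

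The difference between the sexes in this change was tested directly. For the FO-FY change less the MO-MY change, 0 of 8 member probes and 0% of all kept probes were called, and 0 of 8 had an unadjusted p under 0.05, against 5.87% of all. The difference was -0.60 for Slc13a4 (95% confidence interval -2.89 to 1.70) and 0.03 for Slc6a13 (-1.17 to 1.23). Equal changes in the sexes were thus not shown either.

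With both sexes together, old against young, 7 of 8 probes had an unadjusted p under 0.05, against 6.38% of all kept probes with old lower, and 0 passed adjustment, where 1.27% of all kept probes did (0.302% lower in old). All 8 were below 0, against 57.7% of all kept probes, with a median of -0.82 beside -0.02 for all. Slc6a13 came nearest to the threshold, at a log2 fold change of -1.10 ± 0.29 (SE, limma, adjusted p = 0.0647), 2.15-fold lower in old mice. Lum followed at -0.83 ± 0.25 (limma, adjusted p = 0.118), Ogn at -0.82 ± 0.25 (limma, adjusted p = 0.131) and Slc13a4 at -1.69 ± 0.55 (limma, adjusted p = 0.172). Ptgds had -0.90, Mgp -0.57 and the Dcn probes -0.71 and -0.51, with adjusted p between 0.314 and 0.439 (limma). The 95% confidence interval of Slc6a13 ran from -1.70 to -0.50, and that of the brighter Dcn probe from -1.03 to 0.00.

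Whether a member was called depended on single arrays and on which arrays set the estimate of the spread. Without young male 4, 3 probes were called in old against young of both sexes, namely Slc6a13 at -1.27 (limma, adjusted p = 0.0193), Lum at -0.97 (limma, adjusted p = 0.0435) and Ogn at -0.98 (limma, adjusted p = 0.048). Without old male 1 Lum was called, at -0.96 (limma, adjusted p = 0.0376), and without old male 3 Slc6a13, at -1.21 (limma, adjusted p = 0.0406). With only the FO and FY arrays in the model, Slc6a13 (limma, adjusted p = 0.0223) and Ptgds (limma, adjusted p = 0.0315) were called in FO against FY. These 2 groups had low spread, with an SD of log2 values of 0.37 in FO and 0.13 in FY for Slc6a13, beside 0.91 in FA and 0.82 in MY.

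**Figure D2:**
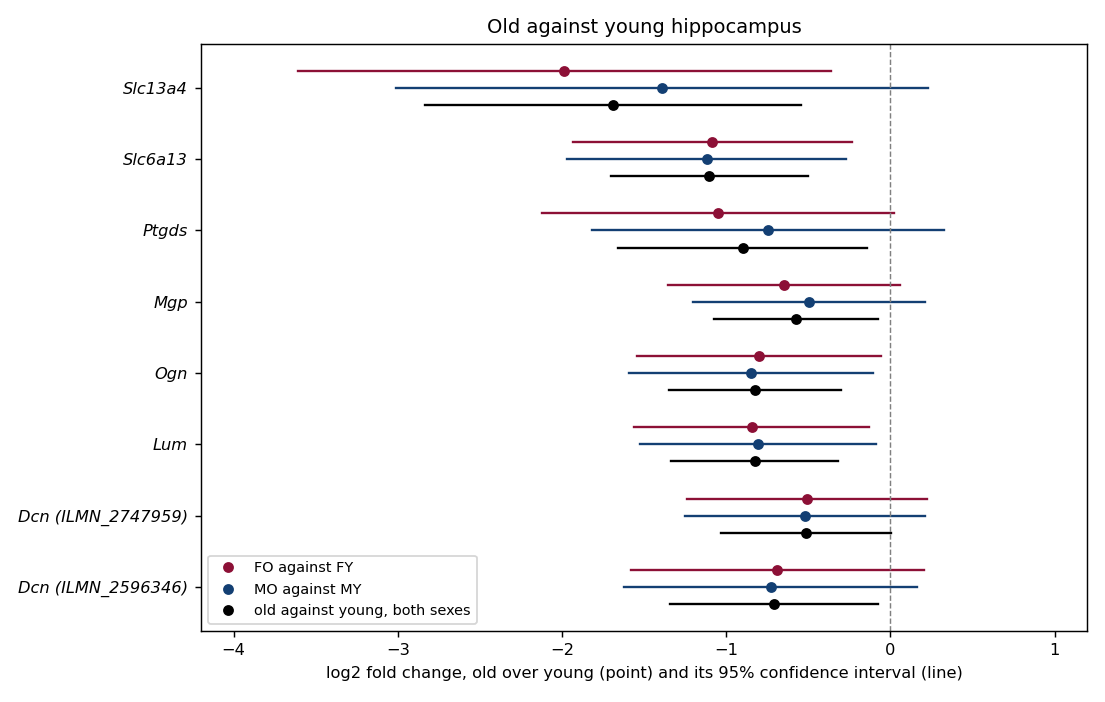
Log2 fold change of old over young (point) with its 95% confidence interval (line) for each kept probe, in females, in males and in both sexes together. All 24 points lie left of 0, from -1.99 for Slc13a4 in females to -0.49 for Mgp in males.

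The comparisons with adult mice gave no call for any member. The comparisons of a sex share its arrays, so their values are given side by side without further comparison. In FA against FY 0 of 8 were called (0% of all kept probes), with 8 below 0 (52.7% of all) and a median of -0.54. In MA against MY 0 of 8 were called (0% of all), with 8 below 0 (54.4% of all) and a median of -0.34. In FO against FA 0 of 8 were called (0.361% of all), with 6 below 0 (44.7% of all) and a median of -0.50, and both Dcn probes were above 0. In MO against MA 0 of 8 were called (0% of all), with 8 below 0 (57.3% of all) and a median of -0.46. No member probe had an unadjusted p under 0.05 in these 4 comparisons, where 11% of all kept probes did in FA against FY, 2.07% in MA against MY, 5.27% in FO against FA and 5.5% in MO against MA. For Slc13a4 the log2 fold change was -1.51 ± 0.78 in FO against FA and -0.48 ± 0.78 in FA against FY, and -0.06 ± 0.78 in MO against MA and -1.33 ± 0.78 in MA against MY (SE). The changes between adjacent ages were not shown to differ between the sexes, with 0 of 8 called for FA-FY less MA-MY and for FO-FA less MO-MA (0% of all in both) and 0 of 8 under an unadjusted p of 0.05 (9.39% and 3.85% of all). Over both sexes, adult against young called 0 of 8 (0.0084% of all) and old against adult 0 of 8 (0.328% of all), with 0 and 2 of 8 under an unadjusted p of 0.05 (2.96% of all for adult against young, and 2.91% with old lower for old against adult).

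Females and males of the same age were also set against each other, where sex and the lavage of the females cannot be told apart. In FO against MO 0 of 8 member probes were called (0.176% of all kept probes), in FA against MA 0 of 8 (0.0504%) and in FY against MY 0 of 8 (0.0336%), and none had an unadjusted p under 0.05 (9.68% of all in FO against MO, 6.55% in FA against MA and 6.97% in FY against MY). Over all ages the 8 log2 fold changes of females over males were above 0, with a median of 0.23 beside 0.01 for all kept probes, of which 43.9% were below 0. None was called (0.336% of all) or had an unadjusted p under 0.05 (10.3% of all), and that of Mgp, 0.38 ± 0.20, had the lowest adjusted p (SE, limma, adjusted p = 0.523). The methods' own test, by age and sex with a fold limit of 1.2, called 0 member probes in all 9 pairwise comparisons.

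The spread between mice of 1 group was large for every member. The pooled within-group SD of log2 values was 1.25 for Slc13a4, 0.82 for Ptgds, 0.65 for Slc6a13, 0.56 for Ogn, 0.54 for Mgp, 0.54 for Lum, and 0.68 and 0.56 for the Dcn probes. The median over all kept probes was 0.19 and the 90th percentile 0.36, so that 8 of 8 member probes lay above the 90th percentile, Slc13a4 at percentile 99.9. Between mice of the same age and sex, 1 SD corresponded to 2.37-fold for Slc13a4 and to 1.45-fold for Lum. The spread was not the same in all groups. In FO the SD of Mgp was 0.10, below the median of 0.15 for kept probes in that group, and in FY that of Slc6a13 was 0.13, below the median of 0.18.

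These deviations were shared between genes. After each value was centred on its group mean, all 21 pairs of the 7 genes had Pearson's r above 0 over the 24 arrays, with a median of 0.629. Of these pairs 13 passed an adjusted p of 0.05 by Pearson's r and 14 by Spearman's rho (permutation within groups, two-sided, Benjamini-Hochberg over 21 pairs). Over all 70810950 pairs of kept probes, the median r was 0.007 and 7.09% exceeded 0.5, beside 13 of 21 here. The genes were chosen as a group that is known to be expressed together, so the count describes this set and compares it with no other.

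Slc13a4 and Mgp had the highest r of the pairs, 0.854 (permutation p = 4e-05, adjusted p = 0.000525), with a rho of 0.803 (permutation p = 0.00021, adjusted p = 0.0011) and an r of 0.794 without the 2 arrays farthest from the median of Slc13a4. For Slc13a4 and Ogn r was 0.826 (permutation p = 0.00011, adjusted p = 0.00077), with a rho of 0.796 (permutation p = 8e-05, adjusted p = 0.0011) and an r of 0.748 without 2 arrays. For Ptgds and Slc6a13 r was 0.819 (permutation p = 0.00024, adjusted p = 0.00126), with a rho of 0.786 (permutation p = 0.00083, adjusted p = 0.0029) and an r of 0.789 without 2 arrays. Taken by sex, r was 0.782 in females and 0.913 in males for Slc13a4 and Mgp, 0.777 and 0.868 for Slc13a4 and Ogn, and 0.861 and 0.825 for Ptgds and Slc6a13. With the 2 farthest arrays left out of each pair, 12 of 21 pairs kept an r over 0.5.

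Lum followed the proteoglycan Ogn (r = 0.758) and Slc13a4 (r = 0.758) more than it followed Slc6a13 (r = 0.318) or Ptgds (r = 0.218), a difference that was not tested. Dcn stood apart from the others, with a mean r to the other 6 genes of 0.211, where the means of the others lay between 0.491 for Ptgds and 0.676 for Mgp. Over all 24 arrays its highest r was with its chromosomal neighbour Lum, 0.483 (permutation p = 0.0386, adjusted p = 0.0579), with a rho of 0.508 (permutation p = 0.0235, adjusted p = 0.038) and an r of 0.45 without 2 arrays. By sex, the r of Dcn with Lum was 0.251 in females and 0.641 in males. In females the highest r of Dcn was 0.603, with Ptgds, where males had -0.149. The 2 Dcn probes had an r of 0.978 with each other. On the array of old male 3 Ptgds stood 1.66 above its group mean on the log2 scale while Dcn stood 1.18 below it.

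**Figure D3:**
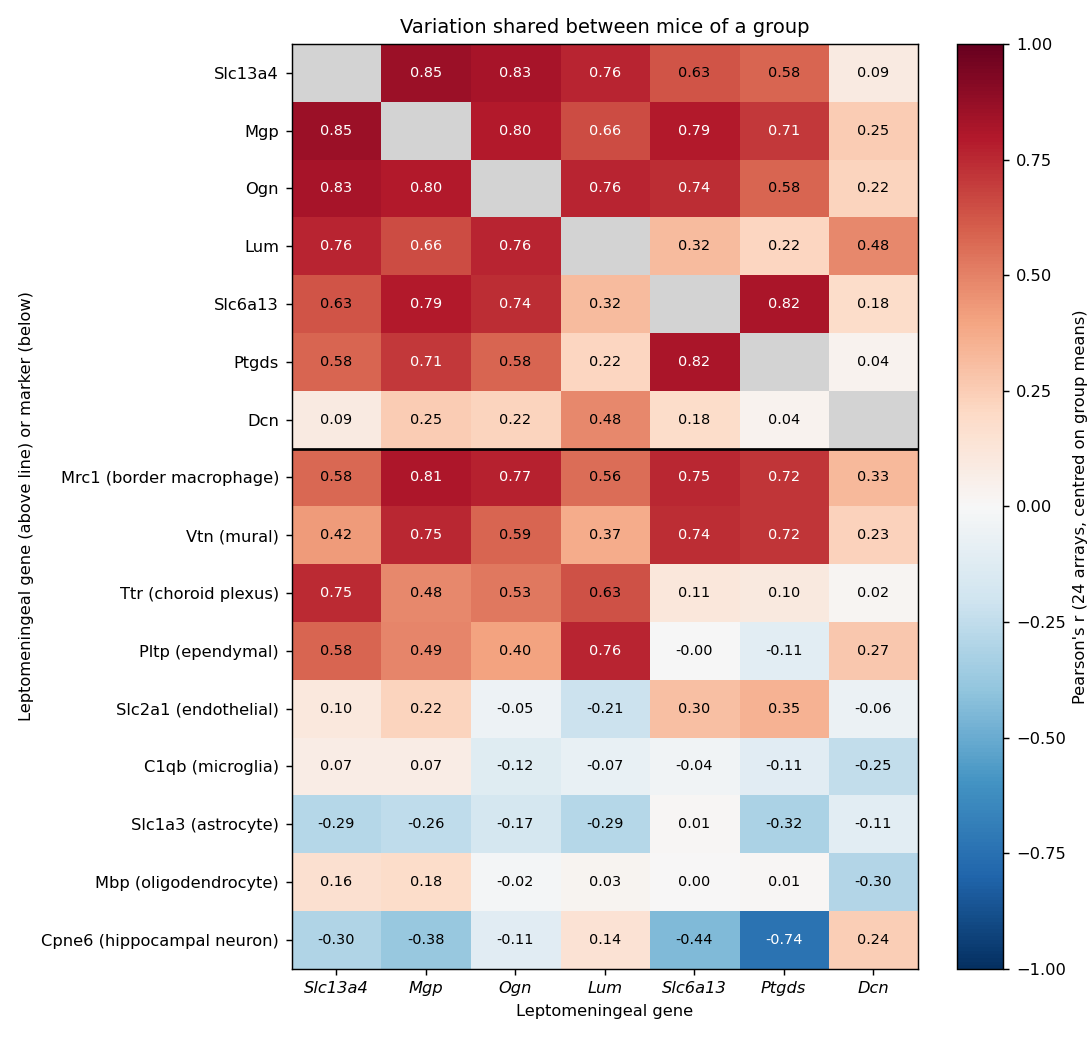
Pearson's r between the 7 genes (above the line) and of each with the brightest kept marker of other cell types (below it), over 24 arrays centred on group means. The other 6 genes form a block of r from 0.22 to 0.85 while those with Dcn reach 0.48 at most, and the median r to the 7 genes is 0.718 for Mrc1 and 0.585 for Vtn. Cldn11 and Hba-a1, which passed with 0 of 7 genes each, are not shown.

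The same arrays were high or low for most genes. On 5 of 24 arrays all 7 genes were below their group mean, and on 3 all were above it. Young male 4 had the lowest mean deviation, -1.08 on the log2 scale, followed by adult female 3 at -0.90 and adult male 4 at -0.60. Adult male 2 at 0.89 and adult female 1 at 0.75 had the highest. Over all kept probes young male 4 had a root mean square deviation of 0.207 and adult female 3 of 0.194, below the 0.356 of old male 1.

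**Figure D4:**
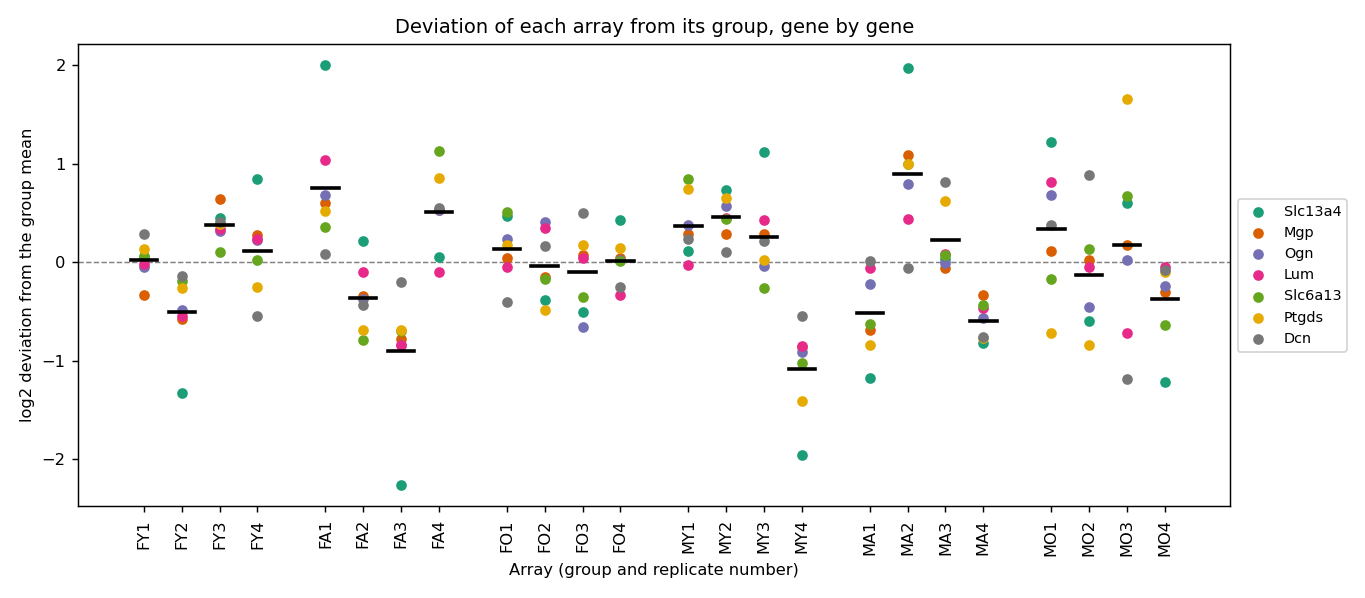
Deviation of each of the 7 genes (points) from its group mean on each array, on the log2 scale, with the mean over the genes as a black line. All points of young male 4 (MY4) and adult female 3 (FA3) lie below 0, with means of -1.08 and -0.90, and old male 3 (MO3) is split between Ptgds at 1.66 and Dcn at -1.18.

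Some markers of the neighbouring tissues moved with these genes on the arrays. Each gene was correlated with the brightest kept marker of 11 lists, 77 pairs in all, adjusted together by permutation within groups. Mrc1, the mannose receptor of border macrophages, had a median r of 0.718 to the 7 genes and passed with 4 of them, the highest r being 0.808 with Mgp (permutation p = 0.00076, adjusted p = 0.0117), with a rho of 0.811 (permutation p = 0.0005, adjusted p = 0.00642) and an r of 0.742 without 2 arrays. Mrc1 was itself dim, with a mean intensity of 26.4 and 3 of 24 arrays at or under 16, so these correlations depend on the floor. It was the only kept gene of 10 border macrophage genes on the array, and Cd163, Lyve1, Clec10a and Folr2 were above 16 on 0 of 24 arrays. Vtn, made by pericytes, had a median r of 0.585 and passed with 3 genes. Over the mural list, the mean r to the 7 genes had a median of 0.214, from -0.0997 for Mylk to 0.638 for Acta2. Rgs5, another pericyte gene, had 0.117. Pltp, the brightest ependymal gene, had a median r of 0.399 and passed with Lum alone, at r = 0.764 (permutation p = 0.00115, adjusted p = 0.0143), a rho of 0.684 (permutation p = 0.00205, adjusted p = 0.0158) and an r of 0.622 without 2 arrays. The markers of astrocytes (Slc1a3), microglia (C1qb), oligodendrocytes (Mbp), endothelium (Slc2a1) and red cells (Hba-a1) passed with 0 of 7 genes. Cldn11, the brightest of the other leptomeningeal and fibroblast genes, also passed with 0 of 7, at a median r of -0.0185. Slc2a1 had the lowest mean r of the endothelial list, 0.0933, where the list's median was 0.276. A single marker thus does not stand for its list.

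Correlations with the choroid plexus, which produces cerebrospinal fluid in the ventricles, were uneven across the set. Ttr, its transthyretin gene, had an r of 0.746 with Slc13a4 (permutation p = 0.00045, adjusted p = 0.0117), a rho of 0.756 (permutation p = 0.00041, adjusted p = 0.00642) and an r of 0.816 without 2 arrays. With Lum its r was 0.633 (permutation p = 0.00562, adjusted p = 0.0361), its rho 0.57 (permutation p = 0.0122, adjusted p = 0.0721) and its r without 2 arrays 0.504. With Ptgds its r was 0.0952 (permutation p = 0.733, adjusted p = 0.973), its rho 0.11 (permutation p = 0.662, adjusted p = 0.882) and its r without 2 arrays 0.149. With Slc6a13 its r was 0.11 (permutation p = 0.657, adjusted p = 0.972), its rho 0.0852 (permutation p = 0.736, adjusted p = 0.89) and its r without 2 arrays 0.241. Over the choroid plexus list, the mean r to the 7 genes had a median of 0.418, from 0.289 for Car12 to 0.456 for Calml4. On adult male 2 the list stood at a mean deviation of 1.92 and the 7 genes at 0.89, and on young male 4 at -1.11 and -1.08. Other arrays had them on opposite sides. On young male 1 the choroid plexus list stood at a mean deviation of -1.47 while the 7 genes stood at 0.37, and on adult female 4 at -1.59 while the 7 genes stood at 0.51. The differences between these correlations were not tested.

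Cpne6, a marker of hippocampal neurons, ran against Ptgds, with r = -0.74 (permutation p = 0.0003, adjusted p = 0.0117), a rho of -0.783 (permutation p = 0.0001, adjusted p = 0.00385) and r = -0.669 without 2 arrays. It also passed with Mgp, at r = -0.376 (permutation p = 0.00149, adjusted p = 0.0143), a rho of -0.585 (permutation p = 2e-05, adjusted p = 0.00154) and r = -0.351 without 2 arrays. Within females r with Ptgds was -0.482 and within males -0.80. With the remaining genes, none of which passed, the r of Cpne6 ran from -0.441 for Slc6a13 to 0.244 for Dcn. Over the list of hippocampal neuron markers, the mean r to the 7 genes had a median of -0.117, from -0.226 for Cpne6 to 0.184 for Wfs1. On old male 3, where Ptgds was highest, the list of hippocampal neuron markers was 0.778 below its group mean on the log2 scale.

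Lists of the neighbouring tissues also had medians below 0 with age, and their part in the results above was not tested. In old against young of both sexes, all 7 kept of 16 choroid plexus genes on the array had a log2 fold change below 0, as had 57.7% of all kept probes. Their median was -1.66, and 0 were called. An unadjusted p under 0.05 was found for 6, against 6.38% of all kept probes with old lower. The summed intensity of these 7 genes ranged from 2883 to 10048 in FO, against 1908 to 18186 in FY, and from 868 to 17463 in MO, against 2690.1 to 17342 in MY. Its median was 3560 in FO against 14232 in FY, and 1013 in MO against 9496 in MY, differences that were not tested. All 8 kept of 9 ependymal genes were below 0, against the same 57.7% of all kept probes, with a median of -0.62. Among them, 1 gene, Mia, was called at -1.33 ± 0.34 (SE, limma, adjusted p = 0.0481). Mrc1 had -0.60 ± 0.21 (SE, limma, adjusted p = 0.21). Both values depend on the floor, since Mia was at or under 16 on 2 arrays and Mrc1 on 3.

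Of 9 kept mural genes, which mark smooth muscle and pericytes, 2 were called lower in old mice, both of them contractile genes of smooth muscle. Acta2, smooth muscle actin, had a log2 fold change of -1.13 ± 0.17 (SE, limma, adjusted p = 0.000418), with intensities of 302 ± 48.1 in FO against 700.1 ± 156 in FY and 296 ± 53 in MO against 632 ± 193 in MY (SD, n = 4 each). Myh11, smooth muscle myosin, had -1.04 ± 0.19 (SE, limma, adjusted p = 0.00288), a value that depends on the floor, since 5 of its 24 values were at or under 16. Other smooth muscle genes of the list gave no call. Mylk was at 157 ± 27.9 in FO against 161 ± 24.1 in FY and 137 ± 33.2 in MO against 178 ± 25.7 in MY (intensity, SD). Tagln and Cnn1 were above 16 on 0 arrays. The median of the mural list was -0.11. Of its pericyte genes, Vtn had -0.34 ± 0.10 (SE, limma, adjusted p = 0.0931) and Rgs5 0.03 ± 0.09 (SE, limma, adjusted p = 0.948). Of 10 endothelial genes, Itm2a at -0.42 and Tek at -0.37 were called lower, and the list's median was -0.08. The medians were 0.52 for 10 microglial genes (6 called higher), 0.28 for 8 oligodendrocyte genes (1 called higher), 0.07 for 8 astrocyte genes, -0.09 for 10 neuron genes and 0.16 for 2 red cell genes (0 called in the last 3).

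The other leptomeningeal and fibroblast genes had calls in both directions. Of the 24 kept, 16 had a log2 fold change below 0 in old against young of both sexes and 8 above, where 57.7% of all kept probes were below 0. The list's median was -0.34 beside -0.02 for all kept probes. In either direction 18 had an unadjusted p under 0.05, a count without a share over all kept probes beside it. Fbln1, which encodes the matrix protein fibulin-1, was called lower, at -0.69 ± 0.14 (SE, limma, adjusted p = 0.00667), with 161 ± 14.5 in FO against 238 ± 30 in FY and 122 ± 26.6 in MO against 218 ± 49.2 in MY (intensity, SD, n = 4 each). S100a6, which encodes a calcium-binding protein, at 0.67 ± 0.11 (limma, adjusted p = 0.00149), and Vim, which encodes vimentin, at 0.50 ± 0.11 (limma, adjusted p = 0.0188), were called higher, and other cells of the hippocampus, astrocytes among them, also make both. Igf2, the growth factor of leptomeninges and choroid plexus, had -1.37 ± 0.37 (SE, limma, adjusted p = 0.0748), with 903 ± 269 in FO against 2689 ± 1208 in FY and 932 ± 443 in MO against 2321 ± 1262 in MY.

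Among the brightest genes of that list, Cldn11, which oligodendrocytes also make in myelin, had a log2 fold change of 0.34 (limma, adjusted p = 0.229), with a mean r to the 7 genes of -0.00926. Apod, a lipocalin of oligodendrocytes and fibroblasts, had 0.65 (limma, adjusted p = 0.127), with a mean r of 0.178. Of the whole list, 10 of the 24 genes had a mean r to the 7 genes over 0.5, a description with no test. They were led by Gjb2, the connexin 26 gene, at 0.666, Serping1, which encodes the C1 inhibitor, at 0.637, and Igf2 at 0.631, and they included Fbln1 at 0.564.

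Among the wider family of small leucine-rich proteoglycans, 3 of 11 genes were kept beside Ogn, Dcn and Lum. Bgn, which encodes biglycan, was called lower in old against young of both sexes, at -0.89 ± 0.18 (SE, limma, adjusted p = 0.00748). Its intensity was 137 ± 13.5 in FO against 271 ± 83.5 in FY and 117 ± 13.5 in MO against 213 ± 38.3 in MY (SD, n = 4 each). Prelp had -0.43 (limma, adjusted p = 0.222). Fmod was at or under 16 on 14 of 24 arrays, with means of 5.94 in FO against 20.1 in FY and 7.56 in MO against 19.2 in MY, so that no exact fold was given.

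**Figure D5:**
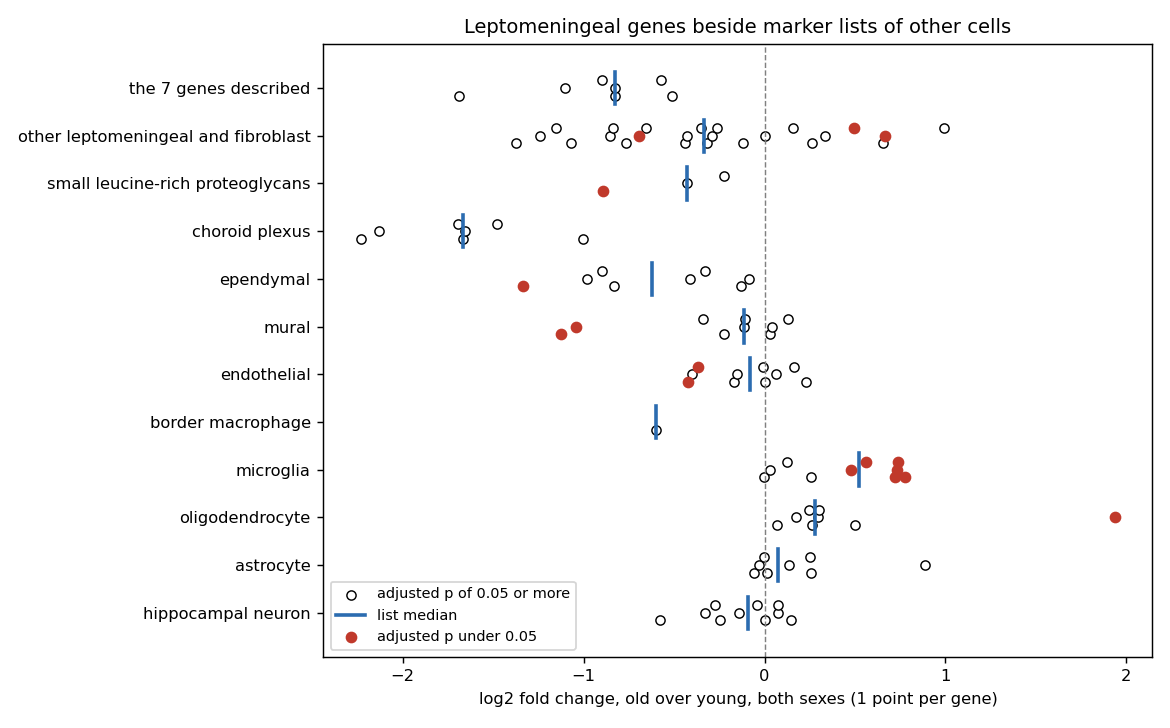
Log2 fold change of old over young in both sexes for 1 probe per gene, by list, with each list's median as a blue bar and genes with an adjusted p under 0.05 in red (limma). The 7 genes have a median of -0.83 with no red point, the choroid plexus list lies at -1.66, and microglial genes lie to the right with a median of 0.52 and 6 red points.

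The biochemical partners of these genes had no call. Of 5 kept genes of prostaglandin synthesis and response, 2 were below 0 and 3 above in old against young of both sexes, with a median of 0.06 and 0 called, and Hpgds, the other prostaglandin D synthase, had 0.06 (limma, adjusted p = 0.902). Of 7 kept retinoid genes, 5 were below 0, against 57.7% of all kept probes, with a median of -0.05 and 0 called. Of 5 kept transporters for GABA, taurine, creatine and glycine related to Slc6a13, 0 were called and the median was 0.06. Among them Slc6a12, the betaine and GABA transporter BGT1, singled out after its values were seen, was at or under 16 on 14 of 24 arrays, with means under 16 in FO and MO against 32.3 in FY and 26.5 in MY, so that no exact fold was given. Of 8 other listed transporters of sulfate, dicarboxylates or related anions on the array, from the Slc13 and Slc26 genes, only Slc13a3 was kept. This dicarboxylate transporter had -0.59 ± 0.15 (SE, limma, adjusted p = 0.0514), with a mean r of 0.544.

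Among all kept probes other than the members, those most like the 7 genes between mice were found by their mean r to them over 24 centred arrays. The 99th percentile of this mean over all kept probes was 0.522. The leading probes were those of Tpm2 (0.70), a tropomyosin of smooth muscle and other contractile cells, Bmp7 (0.695), a growth factor of the leptomeninges, Gjb2 (0.666) and C2 (0.666), a complement component. They were followed by Aox3 (0.665), an aldehyde oxidase, Dab2 (0.665 and 0.656 for 2 probes), an endocytic adaptor, Acta2 (0.663, by a second probe), Aebp1 (0.661), which encodes a collagen-binding protein, and Slc7a11 (0.65), the cystine transporter.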

How the data were processed

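Total RNA of 24 hippocampi, 1 per mouse and array, was measured on Illumina BeadChips. The authors deposited probe intensity after average normalization and background subtraction in GenomeStudio 2011.1 (version per the submitters' processing notes), so values near or below 0 are background. A second table of unnormalized signal was not used, since its 48 columns pair with no sample. The build of the array annotation is not given in the sources used here.

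Intensities were floored at 16 and taken to log2. Probes were kept where every array of some group exceeded 16 (11901 of 25697, 46.3%), and arrays had 11775 to 12437 probes above the floor. The number of arrays limits the precision. One limma model (3.58.1, in R 4.3.3) over the 6 groups, with eBayes and a trend, gave each comparison, with Benjamini-Hochberg adjustment over all kept probes at 0.05. The p-values measure the spread between these mice. Correlations used 100000 permutations within groups, so that the smallest p is 1e-05. The script was tested on simulated data. Gene lists used the probe with the highest mean per gene.

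Members and gene lists were chosen with earlier results of these data known. Named genes were the members, list genes past the threshold in any comparison, up to 4 of the highest mean level per list, and the 10 kept probes with the highest mean r to the members. Others named (such as Gjb2 as a list gene, Serping1, Prelp, Fmod and the dim markers) were chosen after their values were seen. Promoters came from RefSeq tables of GRCm38.p6. Alternatives were other floors, filters, quantile normalization, moderation, array weights, groups in the model, a replicate block, arrays left out and the methods' test (analysis of variance over age and sex, with post hoc testing by the Newman-Keuls procedure).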

Additional observations from a re-analysis of the deposited data

Results flagged for a closer look

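In 4 of 48 sets of 4 arrays (8 probes in 6 groups), 1 array stood far from the other 3 by Dixon's test of the gap over the range, where chance gives about 2.4 (1 in 20). Old female 2 had a Ptgds intensity of 633, against 976 to 999 for the others of FO, and a Mgp intensity of 301, against 343 to 351. Young male 4 had a Mgp intensity of 223, against 494 to 496 for the others of MY, and a Dcn intensity of 890.2 (ILMN_2747959), against 1398 to 1534. The young male is 1 of the 5 arrays on which all 7 genes were below their group mean. Without it, Slc6a13, Ogn and Lum were called lower in old mice of both sexes together.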

How the results depend on the processing

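Of 369 recomputed counts of called member probes over 16 comparisons, 363 equalled the main count of 0. With only the groups compared in the model, 2 probes were called in FO against FY and 1 (Slc6a13) in old against young of both sexes, and with array weights 1 was called in the second comparison (Slc6a13, limma, adjusted p = 0.0497). With 1 array left out at a time, old against young of both sexes gave 0 to 3 called probes. The cause was not tested. In FO against FY, MO against MY and old against young of both sexes, all 509 recomputed log2 fold changes of member probes were below 0, and 9 passed the threshold. With the replicate number as a block, 0 member probes were called in every comparison, while calls over all kept probes were 88 in FO against FY and 17 in MO against MY, beside 85 and 12 without the block. Arrays of the same number in different groups had a median r of -0.00389 over 60 pairs, from -0.447 to 0.555. Those of other numbers had a median of 0.00589 over 180 pairs. The labels do not say what the numbers stand for, and these medians cannot settle whether they pair the mice. Calls over all kept probes ranged from 49 to 138 in FO against FY, from 1 to 29 in MO against MY and from 97 to 207 in old against young of both sexes. Of the 21 pairs of genes, 13 passed with quantile normalization and 16 without centring, beside 13. The kept Lum probe was under the floor on 1 array, which limits the size of its change.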
